A study of Homo sapiens with 4 samples.

Results

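The BCL2 family decides whether a stressed cell keeps its mitochondria intact, and 10 of its genes were followed here in DAOY, an established human medulloblastoma cell line. The genes were taken by name: the pro-survival genes BCL2, BCL2L1 and MCL1, the pore-forming effectors BAX and BAK1, and the BH3-only genes BID, BCL2L11, BMF, PMAIP1 and BBC3. All 10 were measured, each by 1 probe set that the platform annotation pairs with a single gene symbol, out of 18417 genes with such a probe set. All 10 also lay above the intensity filter (mean log2 intensity of at least 6.78, the 25th percentile), as did 13813 genes in all. The arrays asked what happens to gene expression when ZFX, a zinc finger transcription factor, is lowered. The knockdown group (genotype ZFX KD) comprised 3 arrays, 1 for each anti-ZFX short hairpin RNA (H2, H3 and H4), and the control group was 1 array of cells given a scrambled hairpin without a target. All 4 samples were DAOY cells that had been infected with lentivirus for 16 to 24 hours, rested for 48 hours and then kept in 2 ug/mL puromycin, and RNA was taken roughly 48 hours into that selection. The scrambled control thus shares the virus and the drug with the knockdown arrays, and uninfected cells were not analysed here.

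In this family, pro-survival proteins such as BCL2, BCL-XL (from BCL2L1) and MCL1 hold the pore-formers BAX and BAK in check at the outer mitochondrial membrane. BH3-only proteins are the sensors: they carry only the short BH3 helix of the family, bind the groove of the pro-survival proteins, and some of them also activate BAX and BAK directly. Once BAX or BAK assembles into pores, cytochrome c leaves the mitochondria, the apoptosome forms and caspases are switched on. PMAIP1 encodes NOXA, which binds mainly MCL1 and is known as a target of the stress factor ATF4 and of interferon signalling.

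ZFX was lower on every hairpin array. Its probe set read 745 with H2, 749.6 with H3 and 996 with H4, against 1430 on the scrambled array, which is 52.1%, 52.4% and 69.6% of the scrambled intensity. The arrays were alike as a whole, with log2 intensities of any pair correlating at 0.9921 to 0.9962 across probe sets, and no pair held more than 33 identical values. Relative to the scrambled array, the SD of the log2 differences over the genes kept was 0.31 for H2, 0.20 for H3 and 0.22 for H4, so the H2 array stood furthest from the scrambled one. In limma's moderated test of the 3 hairpin arrays against the scrambled array, 0 of 13813 genes passed an adjusted p of 0.05 (0% called; 446 genes, or 3.23%, had an unadjusted p under 0.05), so none of the 10 members passed and every difference below is a measured value without a call. Of 13 neural progenitor and cerebellar lineage markers, 11 lay above the filter, while NES and GLI1 lay under it. PTPRC, EPCAM, CDH1, PECAM1, CDH5 and KDR, which mark blood, epithelial and endothelial cells, lay under the filter too, whereas CD14, CD68, KRT8 and KRT18 lay above it.

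Of the 10 genes, PMAIP1 and BMF stood apart, and the other 8 stayed close to the scrambled level. PMAIP1 was the 1 member at least 1.5-fold lower with every hairpin, which 43 of the 13813 genes were (0.311%), and 0 members were at least 1.5-fold higher with every hairpin (background 0.0507%). Taken singly, 0 members were 1.5-fold higher with any hairpin, a size that 0.992% of genes reached on the H2 array, 0.528% on the H3 array and 0.608% on the H4 array. BMF was more than 1.5-fold lower with H2 and H3 and higher with H4. The 24 log2 differences of the other 8 genes ran from -0.42 to 0.13, and 23 of them were smaller than 0.3 in size. By direction alone, 4 of 10 members (PMAIP1, BCL2L11, BID and BAX) were below the scrambled array with all 3 hairpins, against 30.6% of all genes kept, and 1 of 10 (BBC3) was above it with all 3, against 16.9%. These shares are near the background. BID and BBC3 count through H3 values of -0.00052 and 0.0022 on the log2 scale, and BCL2L11 through an H4 value of -0.0054. The count of 4 lower members fell to 1 (PMAIP1) after centring each array on its median and to 2 (PMAIP1 and BAX) after quantile normalization or cyclic loess. The median of the 10 mean differences was -0.078, against -0.035 over all genes kept. The comparisons of H2, H3 and H4 share the single scrambled array, so a deviation of that array moves all 3 alike.

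**Figure D1:**
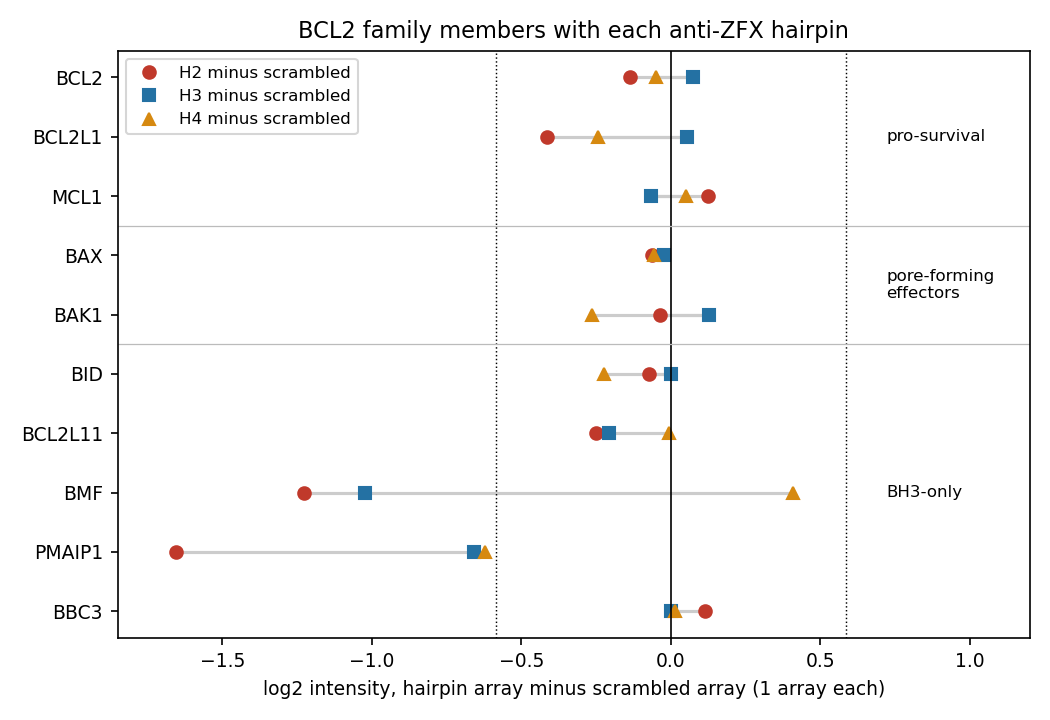
Each point is the log2 intensity on 1 hairpin array minus that on the scrambled array (horizontal axis) for each of the 10 genes, grouped by role; red circles are H2, blue squares H3 and orange triangles H4, and dotted lines mark 1.5-fold either way. PMAIP1 lies left of the left dotted line with all 3 hairpins, BMF lies left of it with H2 and H3 and right of zero with H4, and the other 8 genes lie between the dotted lines.

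Among the BH3-only genes, PMAIP1 had the lowest mean log2 difference from the scrambled array, and BMF was lower than it with H3 alone (-1.02 against -0.66). The PMAIP1 probe set (8021470) read 1446 with H2, 2882 with H3 and 2958 with H4, against 4552 on the scrambled array. All 3 hairpin arrays were below the scrambled one, with H2 well under H3 and H4, which lay close together. These are 31.8%, 63.3% and 65.0% of the scrambled intensity, or log2 differences of -1.65, -0.66 and -0.62. With H2, 23 of the 13813 genes kept had a lower log2 difference than PMAIP1, with H3 101 and with H4 241. The mean difference was -0.98 ± 0.59 (SD, n = 3 hairpins), a mean of 50.8% of the scrambled level, with an SE of 0.43, an unadjusted p of 0.070 and an adjusted p of 0.9998 in limma. An exact two-sided permutation of the lone array gave p = 0.5, since the H2 array lay further from the other 3 than the scrambled array did. The smallest p that 4 arrays allow is 0.25. In a bulk sample, less PMAIP1 RNA per cell and fewer cells with much of it cannot be told apart.

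Leaving out H2 moved the mean PMAIP1 difference to -0.64 (2 hairpins), more than 1.5 times closer to zero, and the range over the 3 such omissions was -1.16 to -0.64. When each array was centred on its median, H4 stood at -0.58, just inside the 1.5-fold line of 0.585 on the log2 scale, so PMAIP1 was then past that line with H2 and H3 but not H4. The epithelial keratins KRT8 and KRT18 were also lower on all 3 hairpin arrays. The summed intensity of the 4 epithelial markers was 9034, 9357 and 8524 on the H2, H3 and H4 arrays, against 11099 on the scrambled array. Nearly all of each sum came from KRT8 and KRT18, as EPCAM and CDH1 lay under the filter. KRT8 was at 74.4%, 65.7% and 66.5% of the scrambled level with H2, H3 and H4. KRT18 was at 85.6%, 96.3% and 83.1%. The part of these keratins in the PMAIP1 result was not tested.

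BMF encodes a BH3-only protein that is held by dynein light chains of the cytoskeleton and released when cells lose anchorage. Its probe set (7987454) read 261 with H2, 301 with H3 and 811 with H4, against 611 on the scrambled array. The hairpin arrays thus lay on both sides of the scrambled one, with H2 and H3 low and H4 the highest of the 4. On the log2 scale BMF differed by -1.23 for H2 (42.7% of the scrambled intensity), -1.02 for H3 (49.2%) and 0.41 for H4 (132.7%). With H3, 16 of 13813 genes had a lower difference than BMF. With H4, 227 had a higher one. The 2 lower values are past 1.5-fold, which the H2 array reached downward at 5.61% of genes and the H3 array at 1.14%, while 2.17% of genes were as far below with H4. The pattern of being at least 1.5-fold lower with H2 and H3 and above the scrambled array with H4 was met by 11 of 13813 genes (0.0796%), a count made after the values of BMF were seen. The mean of -0.61 ± 0.89 (SD, n = 3 hairpins) was smaller than its spread, with an SE of 0.65 and an adjusted p of 0.9998 in limma. Without H4 the mean was -1.12 and without H2 it was -0.31. ZFX itself was at 52.1%, 52.4% and 69.6% with H2, H3 and H4, so H4 had both the highest ZFX and the highest BMF of the hairpin arrays. The scrambled array had more ZFX than H4 (1430 against 996) but less BMF (611 against 811). A relation between ZFX and BMF was not tested.

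**Figure D2:**
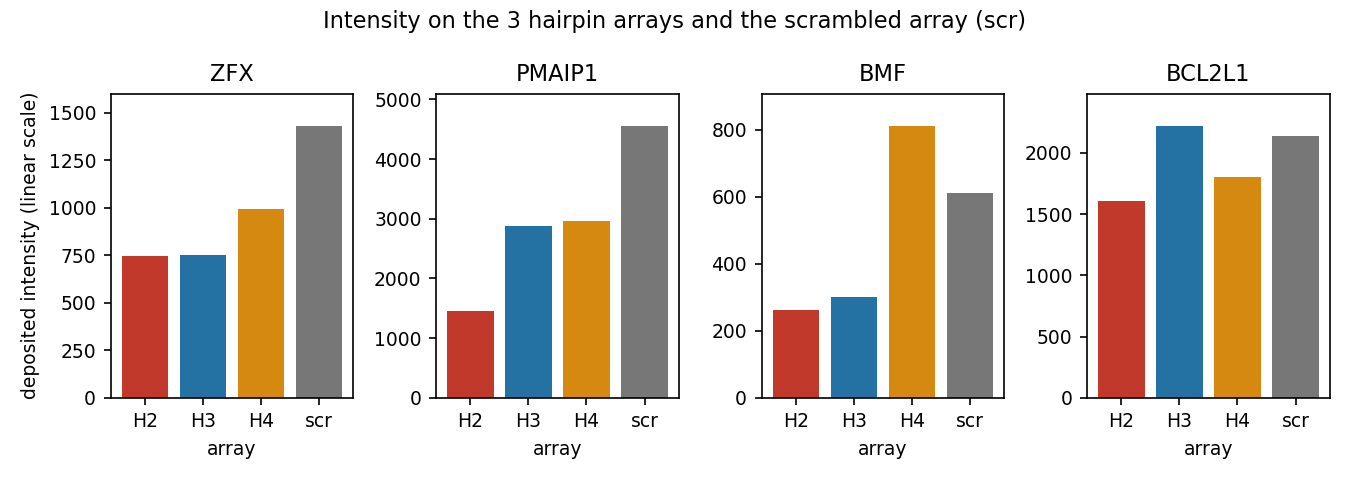
Bars give the deposited intensity (vertical axis, linear, from 0) on the H2, H3, H4 and scrambled (scr) arrays for ZFX, PMAIP1, BMF and BCL2L1, 1 array per bar and therefore without error bars. ZFX and PMAIP1 are highest on the scrambled array, BMF is highest with H4 at 811, and BCL2L1 with H3 (2218) is close to the scrambled array (2139).

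Because ZFX and the other factors named above act at promoters, the 250 bases before the start of PMAIP1 and BMF are shown, from RefSeq in GRCh38.p14. The PMAIP1 stretch is chr18:59899746-59899995 on the plus strand and the BMF stretch is chr15:40108880-40109129 on the minus strand. Both are written 5′ to 3′ and end next to the gene's annotated start.
PMAIP1: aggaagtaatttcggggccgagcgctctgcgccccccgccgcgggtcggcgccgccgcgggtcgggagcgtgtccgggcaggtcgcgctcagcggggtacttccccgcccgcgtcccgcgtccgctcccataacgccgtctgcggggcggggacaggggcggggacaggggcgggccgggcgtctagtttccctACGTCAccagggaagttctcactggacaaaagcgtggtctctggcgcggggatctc
BMF: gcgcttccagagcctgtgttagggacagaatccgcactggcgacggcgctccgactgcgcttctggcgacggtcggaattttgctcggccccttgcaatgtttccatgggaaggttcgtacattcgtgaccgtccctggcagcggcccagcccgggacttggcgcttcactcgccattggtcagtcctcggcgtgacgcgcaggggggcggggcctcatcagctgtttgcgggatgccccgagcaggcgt
Capitals mark the letters TGACGT, read here on the other strand, the short form of the cAMP response element bound by CREB and ATF factors. This form was searched for after the PMAIP1 sequence had been seen, and 7.1% of 35116 RefSeq promoter windows of this length hold it on either strand. The letters AGGCCT, the core reported for ZFX binding and the same on both strands, were in neither stretch, and 9.2% of windows hold them. The interferon-stimulated response element, searched on both strands as GAAA, any 2 bases and GAAA again, was in neither (3.02% of windows), nor was the full cAMP response element TGACGTCA (1.65%). RefSeq windows were at hand for 9 of the 10 genes (15 windows, some genes having several starts). AGGCCT was in 2 of the 15, both of BID, and TGACGT in the PMAIP1 window alone. A match is a description of letters and not a binding site, and its absence covers this window only.

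BCL2L11 encodes BIM, a BH3-only protein that binds every pro-survival member. It read 393 with H2, 405 with H3 and 466 with H4, against 467 on the scrambled array. H2 and H3 were lower by a small amount (84.0% and 86.7%), while H4 was level with the scrambled array (99.6%). Over the hairpins the log2 difference averaged -0.15 ± 0.13 (SD, n = 3). As with BMF, H4 was the highest of the 3 hairpin arrays, but the differences of BCL2L11 were far smaller.

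BID, which links death receptors to mitochondria after caspase-8 cuts it, read 2822 with H2, 2965 with H3 and 2539 with H4, against 2966 on the scrambled array. H3 was level with the scrambled array, and H4 was the lowest, at 85.6%. BBC3 encodes PUMA, a BH3-only protein that binds every pro-survival member. It read 338 with H2, 313 with H3 and 316 with H4, against 312.5 on the scrambled array, so only H2 was apart, at 108.2%. PUMA and NOXA transcripts therefore had different values on the same arrays: with H2, BBC3 was 0.11 above and PMAIP1 was 1.65 below the scrambled array on the log2 scale.

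None of the 3 pro-survival genes was on one side of the scrambled array with every hairpin. BCL2L1, which encodes BCL-XL, read 1604 with H2, 2218 with H3 and 1805 with H4, against 2139 on the scrambled array. H2 and H4 were lower, at 75.0% and 84.4%, and H3 was slightly higher, at 103.7%. The mean log2 difference of -0.20 ± 0.24 (SD, n = 3 hairpins; SE 0.21 in limma) was smaller than the spread between hairpins. It was -0.096 without H2 and -0.33 without H3.

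BCL2 itself was dim. It read 240.9 with H2, 279 with H3 and 256 with H4, against 265 on the scrambled array, with H3 above and the other 2 below. MCL1, which encodes the short-lived protein that NOXA targets, read 4371 with H2, 3831 with H3 and 4158 with H4, against 4010.2 on the scrambled array. H2 and H4 were a little above (109.0% and 103.7%) and H3 a little below (95.5%). MCL1 RNA was thus at 95.5% to 109.0% of the scrambled level on the arrays on which PMAIP1 RNA was at 31.8% to 65.0%. The arrays do not measure MCL1 protein, on which NOXA acts. The mean log2 differences were -0.038 ± 0.11 for BCL2 and 0.037 ± 0.096 for MCL1 (SD, n = 3 hairpins), and each changed sign without H2.

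The pore-forming effectors had small differences. BAX read 1147 with H2, 1181 with H3 and 1152 with H4, against 1199 on the scrambled array. All 3 hairpin arrays were slightly below it, at 95.7%, 98.5% and 96.1%, and BAX had the narrowest spread of the 10 genes (mean log2 difference -0.048 ± 0.023, SD, n = 3 hairpins). That mean is close to the median of all genes kept, -0.035. The exact two-sided permutation p was 0.25, the smallest 4 arrays can give. BAK1 read 829.8 with H2, 929 with H3 and 709 with H4, against 851 on the scrambled array. H4 was the lowest, at 83.3%, and H3 the highest, at 109.1%, so the hairpins lay on both sides (mean log2 difference -0.058 ± 0.20, SD, n = 3 hairpins).

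**Figure D3:**
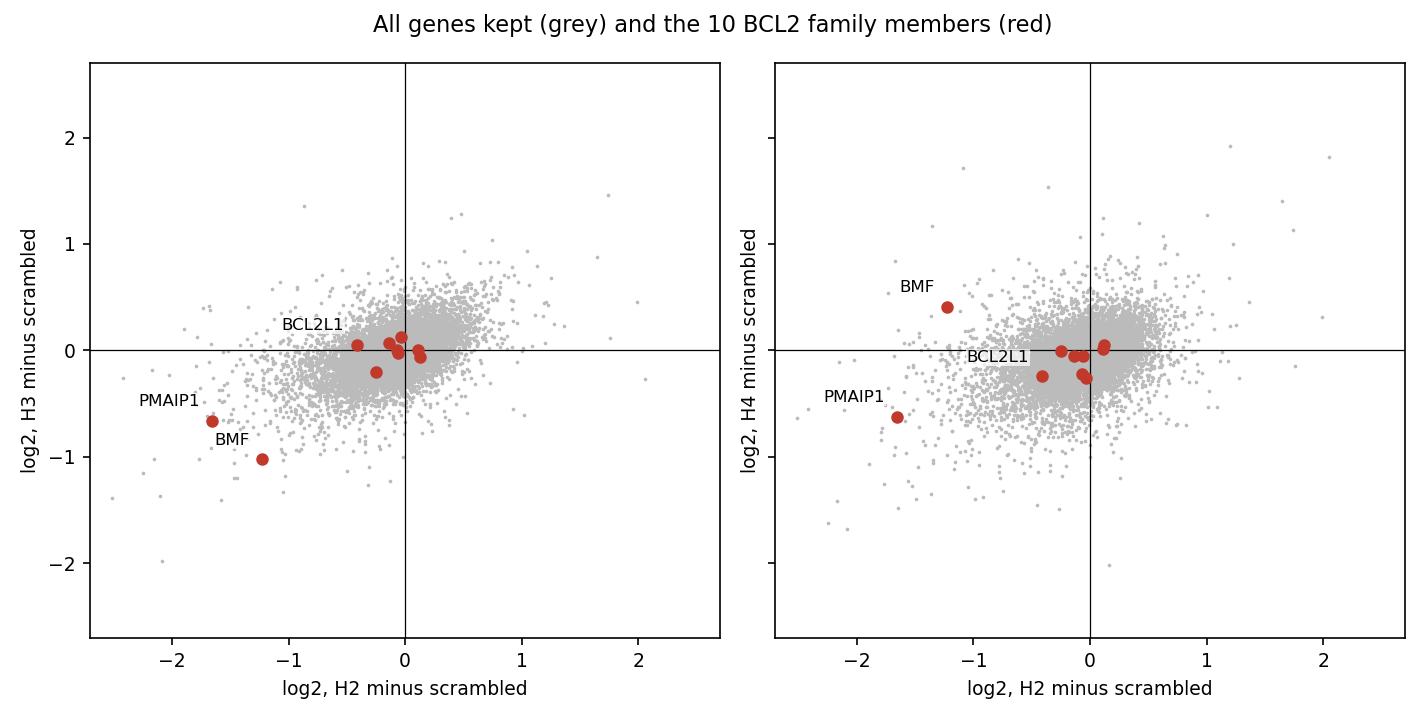
Log2 differences from the scrambled array of all 13813 genes kept (grey) and of the 10 BCL2 family members (red), with H2 on the horizontal axes, H3 on the left vertical axis and H4 on the right one. PMAIP1 lies at the lower left edge in both panels (-1.65 with -0.66, and -1.65 with -0.62), BMF does so on the left and lies above zero on the right (0.41), and the other members lie within the grey cloud.

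The genes with the pattern most like that of PMAIP1 were found by the Euclidean distance over the 3 log2 differences, among the 13813 genes kept. The nearest 5 were IFIT2, AIM2, GBP4, BICC1 and PRKCH, at distances of 0.10 to 0.24. IFIT2, an interferon-induced antiviral protein, read 238 with H2, 502 with H3 and 532 with H4, against 771 on the scrambled array, or log2 differences of -1.70, -0.62 and -0.54. AIM2, a sensor of cytosolic DNA, had log2 differences of -1.52, -0.67 and -0.56. GBP4, a guanylate-binding protein inducible by interferon, had -1.59, -0.83 and -0.66. BICC1, an RNA-binding protein, had -1.56, -0.47 and -0.60, and PRKCH, the eta isoform of protein kinase C, had -1.48, -0.65 and -0.46. That these genes were lowest with H2 follows from how they were chosen, and the likeness rests on 3 values from 4 arrays that share the scrambled one.

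The rest of the BCL2 family had differences in both directions. Of 14 further family genes, 13 were measured and 9 passed the filter (BCL2A1, BIK, BCL2L14 and BCL2L15 were too dim, and BCL2L2 was not analysed here). Of these 9, 3 were lower and 3 higher with all 3 hairpins (30.6% and 16.9% of all genes kept), with a median log2 difference of 0.0097. BOK, an effector relative of BAX and BAK1, was at 116.5%, 107.6% and 114.8% of the scrambled level with H2, H3 and H4. BCL2L10, a pro-survival relative, was at 84.4%, 90.5% and 86.7%, and BAD, a BH3-only protein controlled by growth factor signalling, at 95.5%, 89.8% and 86.5%. HRK, a BH3-only protein best known from neurons, was at 108.7%, 100.8% and 103.7%. BECN1, an autophagy protein that binds BCL2, had the largest single difference of the 9, at 123.0%, 111.3% and 74.5%. None of the 9 reached 1.5-fold with any hairpin, and 0 passed in limma.

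Among 9 genes whose products bind or turn over BCL2 family proteins, 2 were lower and 1 was higher with all 3 hairpins (30.6% and 16.9% of all genes kept). The higher one was DYNLL1, the dynein light chain that holds BIM and is closely related to the one that holds BMF. It was at 113.5%, 113.5% and 120.9% of the scrambled level with H2, H3 and H4 (mean log2 difference 0.21, unadjusted p = 0.051 and adjusted p = 0.9998 in limma). DYNLL2, the partner of BMF, lay on both sides, at 81.5%, 111.8% and 89.5%. Both genes that were lower with all 3 differed little: HUWE1, the ligase that marks MCL1 for degradation, was at 87.1%, 96.5% and 90.0%, and VDAC3 was at 96.1%, 97.8% and 98.6%. VDAC2, the channel that places BAK in the outer membrane, was at 109.8%, 98.9% and 109.2%.

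Downstream of the mitochondria, 5 apoptosome and caspase genes were measured and kept, and 4 were lower and 1 was higher with all 3 hairpins, where 30.6% and 16.9% of all genes kept were. The list's median log2 difference was -0.18, against -0.035 over all genes kept. CASP9, the initiator of the apoptosome, was at 76.8%, 85.4% and 77.7% of the scrambled level with H2, H3 and H4 (mean log2 difference -0.32, unadjusted p = 0.071 and adjusted p = 0.9998 in limma). CASP6 was at 69.8%, 92.9% and 89.8% and CASP2 at 83.1%, 93.7% and 87.8%. CYCS, cytochrome c, was the gene above, at 116.4%, 107.0% and 111.5%. Of 8 kept genes for IAP proteins (inhibitors of apoptosis) and their antagonists, 1 was lower and 3 were higher with all 3 (30.6% and 16.9% of all genes kept), with a median of 0.0071. DIABLO, which encodes the IAP antagonist SMAC, was at 108.0%, 112.3% and 115.3%. No gene of either list reached 1.5-fold with any hairpin.

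The death receptor pathway had larger single differences. Of 16 genes, 11 were kept, and 6 were lower and 1 was higher with all 3 hairpins (30.6% and 16.9% of all genes kept), with a median log2 difference of -0.17 (-0.035 over all genes kept). TNFSF10, which encodes the death ligand TRAIL, was at 30.2%, 71.7% and 78.1% of the scrambled level with H2, H3 and H4. TNF was at 39.2%, 82.4% and 49.0%. The brightest of its 3 probe sets was dim on the H2 and H4 arrays, at 153 and 192, against 322 with H3 and 391 on the scrambled array. CFLAR, which encodes FLIP, the inhibitor of caspase-8, was at 65.3% with H2 and at 99.4% and 107.1% with H3 and H4. H2 was the lowest of the hairpin arrays for all 3 genes, as it was for PMAIP1. They were named for being at least 1.5-fold away with any hairpin, and the H2 array had the most genes that far below. This likeness therefore follows in part from how they were chosen. FAS lay at 97.4%, 132.2% and 140.1%. Of these 11 genes, 3 were at least 1.5-fold lower on the H2 array, 0 on the H3 array and 1 on the H4 array, and 0 passed in limma. Over all genes kept, 5.61% were that far below on the H2 array, 1.14% on the H3 array and 2.17% on the H4 array.

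The transcription factors known to drive BH3-only genes had small differences. Of 10 kept, 4 were lower and 0 were higher with all 3 hairpins, with a median log2 difference of -0.11. The 4 of 10 are near the 30.6% of all genes kept that were lower, and 16.9% of all genes kept were higher. DDIT3 (CHOP), the stress factor that raises BIM, was at 82.7%, 85.1% and 82.1% of the scrambled level with H2, H3 and H4. ATF4, which drives PMAIP1 under stress, was at 83.7%, 94.6% and 82.8%, and MYC at 87.1%, 90.2% and 87.9%.

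**Figure D4:**
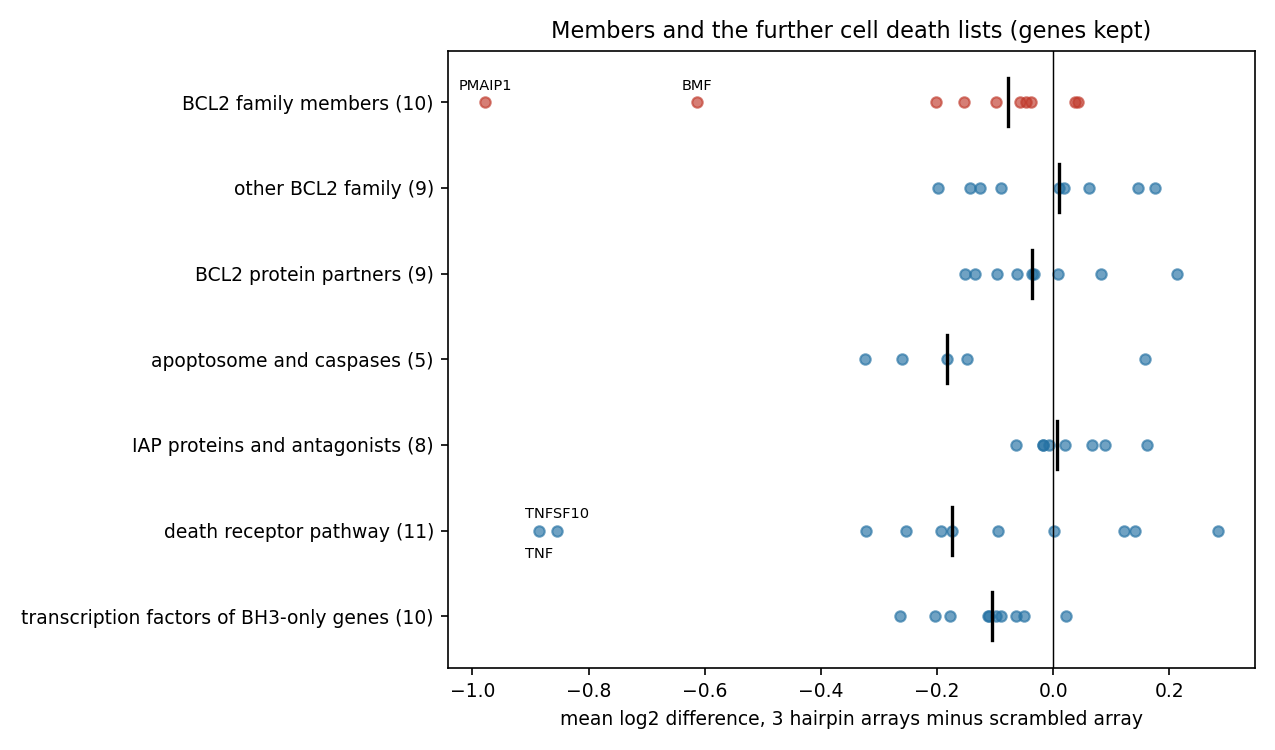
Each point is 1 gene's mean log2 difference of the 3 hairpin arrays from the scrambled array (horizontal axis), the black bars are list medians, and the number after each list name counts the genes kept; genes 0.5 or more from zero are named. PMAIP1 (-0.98) and BMF (-0.61) lie apart from the other 8 members, as TNF and TNFSF10 do in the death receptor list.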

How the data were processed

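The authors deposited an intensity for each of 33297 probe sets on each array, made with RMA, per the submitters' processing notes. RMA includes a quantile step that brings arrays toward 1 intensity distribution, but the deposited medians still differ slightly, from 226.0 to 232.3. The genome build is not given in the sources used here, and no RMA version was found there. The values are on a linear scale, so log2 was taken first. Platform annotation gave 1 symbol to 19460 probe sets, and a gene's probe set with the highest mean was used. Genes under the 25th percentile of mean log2 intensity were left out. The 13813 genes kept were fitted with limma 3.58.1 in R 4.3.3 (lmFit, eBayes with an intensity trend, Benjamini-Hochberg adjustment), 3 hairpin arrays against 1. With 2 residual degrees of freedom, the spread is that between hairpins, which eBayes draws toward the trend over all genes kept. The single control array is taken to vary alike. Each sample had its own lentivirus, and no source says that a transduction was repeated. The p-values therefore rest on the spread between these arrays and on that trend, not on repeated transductions. Single hairpins have no replicate and no test, and the number of arrays limits the precision. Differences are knockdown minus scrambled, and an SD over hairpins leaves out the error of the scrambled array. Detection calls, dates and slides were not used here, so batches were not examined. The fit was tested on simulated data in which the control array varied like the hairpin arrays, so that test cannot check this assumption.

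The members and further lists were chosen with earlier results of these data known. Named are ZFX, all 10 members, genes of the further lists at least 1.5-fold away with any hairpin (otherwise up to 4 with the largest mean difference), some of the other family and partner genes, and the 5 genes nearest to the leading member. FAS and BECN1 were added after their values were seen. One further list and some single genes are not reported here. Alternatives covered scaling, an offset of 50, the filter, the probe set rule, the trend and each hairpin left out. Figures used matplotlib 3.10.9.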

Additional observations from a re-analysis of the deposited data

How the results depend on the processing

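The mean difference of PMAIP1 stayed negative under all 10 alternatives, between -1.16 and -0.64, and those of BMF (-1.12 to -0.31) and ZFX (-0.94 to -0.73) did so too. No gene passed limma's adjusted threshold under any of the 11 settings tried. Of 98 values of single members under the alternatives, 95 kept their direction. The 3 that did not came from leaving out 1 hairpin: the mean of BCL2 ran from -0.093 to 0.013, that of MCL1 from -0.0068 to 0.088 and that of BAK1 from -0.15 to 0.045. Part of this agreement was fixed in advance. Each member has 1 probe set, so the filter and probe set settings left its values unchanged. Leaving out a hairpin cannot reverse a gene, such as PMAIP1, that lies on one side with all 3. Counts by direction followed the scaling, since several members lie near zero. Instead of 4 members, 1 (PMAIP1) was lower with all 3 hairpins after centring each array on its median, and 2 (PMAIP1 and BAX) were after quantile normalization and 2 after cyclic loess. Leaving out 1 hairpin gave 4 to 7 lower members and 1 to 2 higher ones, 7 and 2 of these without H3, when fewer arrays had to share a side and 40.6% and 23.5% of all genes did. With the filter at the 50th percentile 0 were higher, because BBC3 and BCL2 were then left out. The count of members at least 1.5-fold away with every hairpin was 0 after centring, and 1 to 2 when 1 hairpin was left out (2 without H4, when BMF joined PMAIP1). Over all genes kept, centring moved the median from -0.035 to -0.0026 and the share below the scrambled array with all 3 hairpins from 30.6% to 23.3%. No paired analysis was possible because there is 1 scrambled array. No background signal was used here, so the part of the intensity that is background is unknown. This bears on the dimmer members, BCL2 and BBC3, and on BMF with H2 (261) and H3 (301). Outside the members, it bears on TNF with H2 (153) and H4 (192).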
